A study of Mus musculus with 3 samples.

Results

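Serglycin is the proteoglycan core of mast cell granules, and heparin is the highly sulfated chain that connective tissue mast cells build on it. The genes described are those for serglycin and for 9 enzymes that start, extend and sulfate such chains. They were chosen by name, with earlier results of these data known, and every probe set naming them was used. Of the 10 genes, 9 were measured, by 12 of the 41345 probe sets, and Ndst1 was not analysed here. For comparison, 22180 genes had a probe set naming them alone.

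Transcript levels came from 3 arrays, each of 100 cells sorted from the peritoneal cavity. The cells were pooled from 5 naive female BALB/c mice aged 10 to 11 weeks, and the labels name no transgene or treatment. Mature mast cells and mast cell progenitors both stained high for c-kit and positive for FcεRI, lacked CD127 and CD25, and were intermediate for CD16/32. Mature mast cells had high side scatter with integrin β7 from negative to intermediate, whereas side scatter was low and integrin β7 high on progenitors. Type 2 innate lymphoid cells, included by the study as distantly related cells, were CD127 and CD25 positive, FcεRI and CD16/32 negative and at most low for c-kit. All 3 populations were positive for T1/ST2, and lineage markers were negative, or negative to low on the mast cell populations. Each population is 1 array from pooled animals, so neither an error nor a test can be given, and the order of the levels of any gene cannot be set against a spread between replicates. In such bulk samples, fewer cells with a transcript and less of it per cell cannot be told apart.

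The chain is begun by a xylosyltransferase, which puts xylose on serines of the core protein, and galactosyl- and glucuronyltransferases complete a linker. The polymerase of Ext1 and Ext2 then adds glucuronic acid and N-acetylglucosamine in turn. N-deacetylase/N-sulfotransferases replace acetyl groups by sulfate, an epimerase turns glucuronic into iduronic acid, and O-sulfotransferases act on the result. In mice, Ndst2 is known for its role in mast cell heparin, and loss of it or of serglycin is known to impair the storage of granule proteases.

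Levels are RMA values on a log2 scale. A gene was counted as at least 4-fold or 2-fold different when its log2 levels on 2 arrays lay at least 2 or 1 apart and the brighter array exceeded its own median (6.30 for mature mast cells, 6.32 for progenitors and 6.30 for innate lymphoid cells). Brightness depends on the probes as well as on the transcript, so a place above or below an array median is no measure of how abundant one gene is against another. Of the 9 measured members, 7 were above the median on all 3 arrays, and Xylt2 and Hs2st1 were below it on all 3.

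The mast cell markers Cpa3, Cma1, Mcpt4, Tpsb2, Kit, Fcer1a, Ms4a2 and Hdc had summed log2 levels of 81.9 in mature mast cells, 65.5 in progenitors and 47.8 in innate lymphoid cells. The excess of progenitors over innate lymphoid cells lay in the protease genes Cpa3 (a difference of 7.01), Mcpt4 (5.02), Cma1 (3.58) and Tpsb2 (1.09). Kit (0.26), Fcer1a (0.32), Ms4a2 (0.33) and Hdc (0.03) differed little between these 2 arrays, although progenitors were sorted as high for c-kit and positive for FcεRI. The 7 measured markers of type 2 innate lymphoid cells summed to 44.3 in mature mast cells, 44.5 in progenitors and 50.5 in innate lymphoid cells. The markers past 2-fold were Il7r, at 5.76 in mature mast cells, 5.89 in progenitors and 8.72 in innate lymphoid cells, and Klrg1, at 5.87, 6.05 and 8.11 in the same order. Il2ra and Icos differed by at most 0.66, Gata3 by 0.06, and Rora and Thy1 were tied on all arrays. Of 27 markers of macrophages, B cells, T cells, granulocytes and stromal cells, 0 differed by 2-fold in any comparison, and their largest difference was 0.45. Among all genes, 2.44% to 2.65% differed by 2-fold in each comparison. A log2 level of 8 was exceeded by 788 genes in mature mast cells, 619 in progenitors and 811 in innate lymphoid cells, and the part of this gap in the members' differences was not tested.

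Mature mast cells and progenitors differed by at least 2-fold in 3 of the 9 members, and all 3 were higher in mature cells. Ndst2, which encodes an N-deacetylase/N-sulfotransferase, was 13.7-fold higher, Ext1, a subunit of the chain polymerase, 2.43-fold and Srgn, the serglycin core gene, 2.11-fold. With quantile normalization repeated, Srgn missed 2-fold, at a log2 difference of 0.72, and 2 members remained past it, Ndst2 and Ext1. The other 6 members, for the linker, the second polymerase subunit, the epimerase and the O-sulfotransferases, differed by less than 0.1 on the log2 scale. Past 4-fold there was 1 member of 9, Ndst2, and 0.834% of all genes passed in that direction. Past 2-fold there were 3 of 9, against 1.93% of all genes, and 0 members were lower, against 0.509%. The median difference was 0.00 over the members and 0.00 over all genes. Ties fix both medians, since 5 of 9 members and 58.3% of all genes had the same value on these 2 arrays.

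Bright genes reached these sizes more often than all genes did. Among the 931 genes whose brighter array of this pair lay above a log2 level of 8, 16.4% were at least 4-fold and 31.6% at least 2-fold higher in mature mast cells. Ndst2, Ext1 and Srgn all belong to those genes, and the other 6 members do not. Ndst2 and Ext1 exceed 8 only on the mature mast cell array, the one where they are high. The set is thus chosen partly by the difference itself, and its shares are no independent reference. Lower in mature mast cells by at least 2-fold were 6.98% of the bright genes. When quantile normalization was repeated, the split over all genes moved to 392 higher and 180 lower at 2-fold, against 428 and 113 as deposited.

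**Figure D1:**
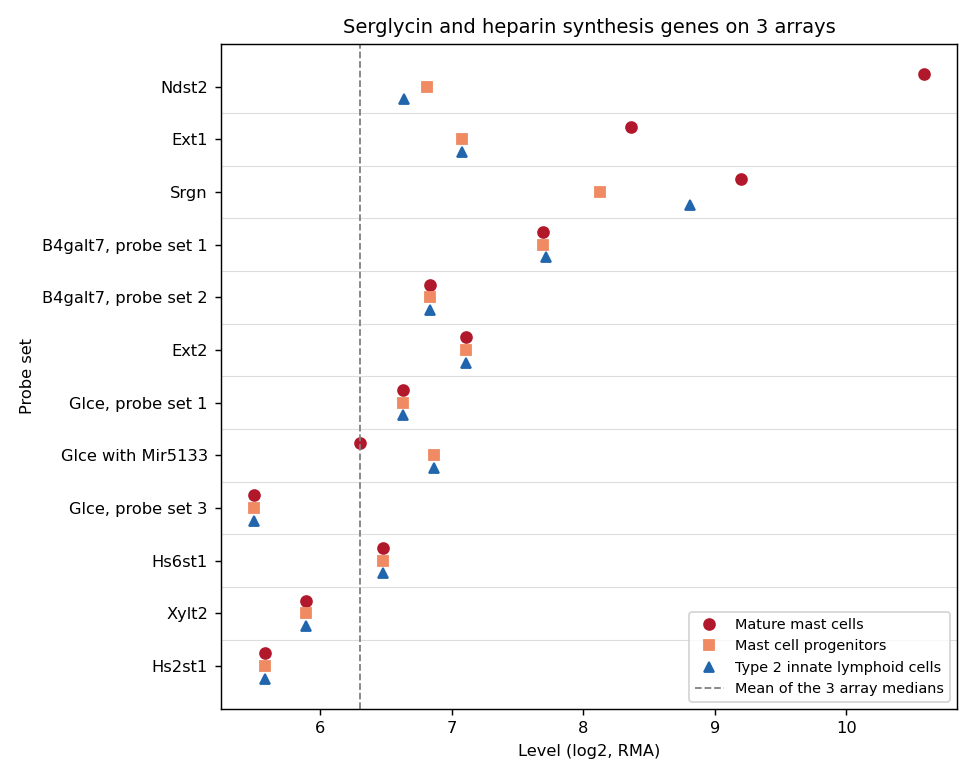
Log2 RMA levels (x axis) of the 12 probe sets that name a member (y axis), on the arrays of mature mast cells, mast cell progenitors and type 2 innate lymphoid cells, with 1 point per array and a dashed line at the mean of the array medians. Ndst2 stands at 10.59 in mature mast cells and near 6.7 in the other populations, whereas 7 probe sets have 1 value on all 3 arrays.

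Ndst2 had a level of 10.59 in mature mast cells, 6.81 in progenitors and 6.64 in innate lymphoid cells. The mature mast cell array was thus high, and the other arrays lay within 0.17 of each other, a short way above their medians. Kit and Fcer1a were likewise only 0.26 and 0.32 higher in progenitors than in innate lymphoid cells. Progenitors were nevertheless sorted as high for c-kit and positive for FcεRI. Whether a low value on the progenitor array means little transcript was not tested. The difference between mature mast cells and progenitors was 3.78, and 38 genes, Ndst2 included, had at least that difference, or 0.171% of all genes. Against innate lymphoid cells the difference was 3.95, or 15.5-fold, a size reached by 33 genes. Ndst2 has 1 probe set, so no other probe set can be compared with it. The neighbouring measured genes on chromosome 14 showed no such difference. Zswim8 was at 6.40 on all 3 arrays, and an identical value is no measure of equal transcript. Camk2g, a calmodulin-dependent kinase gene, was at 6.70 in mature mast cells, 6.85 in progenitors and 7.07 in innate lymphoid cells.

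Genes were ranked by the likeness of their 3 values to those of Ndst2, as the Euclidean distance over the arrays. Since brightness differs between probes, each gene's own mean was first subtracted, a setting chosen after the data were examined. Among 17592 genes with established names, the nearest were Tph1, whose product catalyses the limiting step to serotonin, at a distance of 0.08, Fcer1a, the IgE-binding chain of FcεRI, at 0.19, Cma2, a chymase-family gene, at 0.20, Acer3, a ceramidase gene, at 0.23 and Kit, which encodes the stem cell factor receptor and sort marker c-kit, at 0.28. Tph1 was at 9.57 in mature mast cells, 5.86 in progenitors and 5.59 in innate lymphoid cells. By levels with no mean subtracted, Kit was the nearest, at 0.31, and Plek, Ss18l2, Gpr141b and Capns1 followed, a ranking that probe brightness enters. With 3 arrays, likeness of this kind describes the arrays alone.

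**Figure D2:**
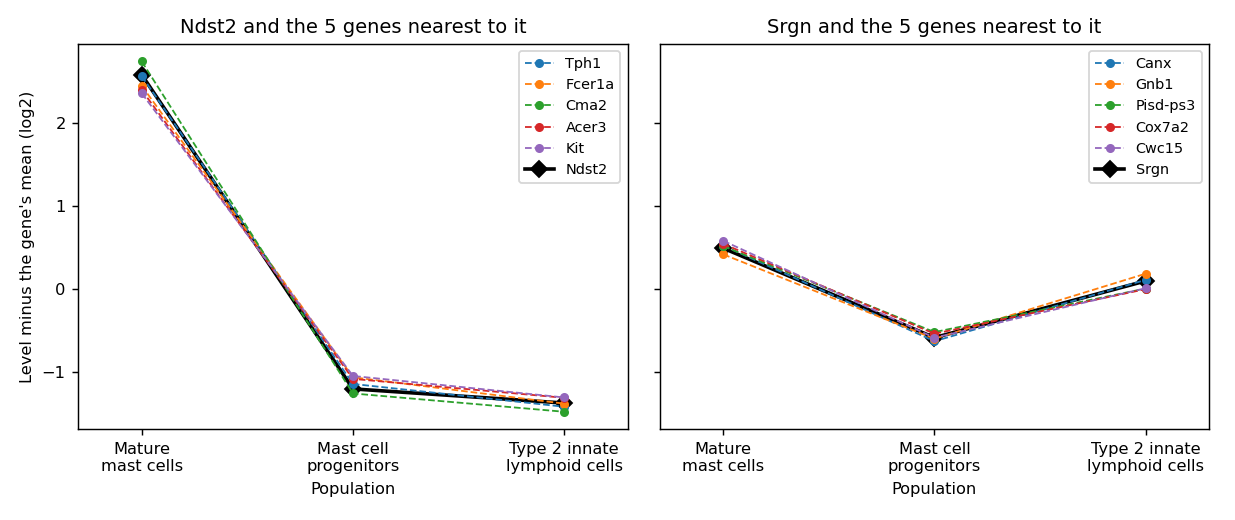
Log2 RMA level minus the gene's mean over the 3 arrays (y axis) for Ndst2 (left) and Srgn (right) in black, each with the 5 genes nearest to it in colour, by population (x axis); lines join the values of a gene and carry no order in time. Tph1, at a distance of 0.08 from Ndst2, and Canx, at 0.05 from Srgn, lie closest to the black lines.

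The promoters of Ndst2 and Srgn are shown because these genes are the chain-sulfating and core members with contrasting patterns, 1 bright in mature mast cells alone and 1 bright in every population. Each runs from 250 bases before to 50 bases after an annotated start (RefSeq, GRCm38.p6). The Ndst2 stretch is chr14:20734513-20734812 on the minus strand, at a listed start that is not at the outer edge of the annotated gene. The Srgn stretch is chr10:62527396-62527695 on the minus strand, the outer of 2 listed Srgn starts. Capitals mark matches on either strand to CCGGAA (the core of many ETS factor sites), CAGCTG (an E-box), GATAA (the core of many GATA factor sites) and CCGCCC (a GC box). These motifs were chosen after the sequences were read, and no matches overlap.
Ndst2: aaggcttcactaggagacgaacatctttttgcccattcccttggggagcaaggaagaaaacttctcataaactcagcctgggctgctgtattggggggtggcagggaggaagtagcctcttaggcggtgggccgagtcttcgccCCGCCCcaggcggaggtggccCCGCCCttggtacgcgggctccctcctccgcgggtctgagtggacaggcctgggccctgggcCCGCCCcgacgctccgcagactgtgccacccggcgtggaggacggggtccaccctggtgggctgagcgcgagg
Srgn: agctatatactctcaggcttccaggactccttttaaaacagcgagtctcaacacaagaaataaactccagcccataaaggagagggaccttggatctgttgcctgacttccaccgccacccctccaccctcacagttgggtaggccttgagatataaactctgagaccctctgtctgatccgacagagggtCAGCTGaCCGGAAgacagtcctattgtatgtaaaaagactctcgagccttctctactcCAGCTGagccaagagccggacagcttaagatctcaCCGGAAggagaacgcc

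The Ndst2 stretch held 3 matches to CCGCCC and none to the other motifs, with 66.7% G and C. The Srgn stretch held 2 matches each to CCGGAA and CAGCTG and none to GATAA or CCGCCC, with 51% G and C, against a median of 52.7% over all 32851 promoters of 300 bases in the table. Over those promoters, CCGGAA occurred in 14.9%, CAGCTG in 16.3%, GATAA in 25.4% and CCGCCC in 35.7%. Of the 8 members with a promoter in the table, 5 held CCGCCC, 2 held GATAA (Ext2 and B4galt7), and Srgn alone held CCGGAA and CAGCTG. A match is a description of letters and says nothing of binding in these cells. Among the 5 members with CCGCCC were Glce, Hs2st1, Hs6st1 and Xylt2. Their values were tied on all 3 arrays, which is no measure of equal transcript, so they make no contrast with Ndst2.

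Srgn had a level of 9.20 in mature mast cells, 8.13 in progenitors and 8.81 in innate lymphoid cells. Serglycin transcript was therefore bright in all 3 populations, the lymphoid one included, and the progenitor array was the lowest. The difference of 1.08 between mature mast cells and progenitors lay just past the 2-fold size, and 423 genes (1.91%) had at least as large a difference. Against innate lymphoid cells, mature mast cells were 0.39 higher and progenitors 0.68 lower, neither of which reached 2-fold. With quantile normalization repeated, the difference between progenitors and innate lymphoid cells was -0.27.

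After each gene's mean was subtracted, the genes nearest to Srgn were Canx, which encodes the endoplasmic reticulum chaperone calnexin, at a distance of 0.05, the G protein subunit gene Gnb1 at 0.12, the pseudogene Pisd-ps3 at 0.12, the respiratory chain gene Cox7a2 at 0.12 and the splicing gene Cwc15 at 0.12. Canx was at 10.24 in mature mast cells, 9.09 in progenitors and 9.82 in innate lymphoid cells. By levels with no mean subtracted they were Vamp8, Xist, Usp17ld, Rad21 and Gpr171. These ranked between 37 and 193 once the mean was subtracted, so the ranking for Srgn depends on each gene's mean level. Probe brightness and transcript amount both enter that mean.

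Ext1 had a level of 8.36 in mature mast cells and the same level, 7.08, in progenitors and in innate lymphoid cells. Mature mast cells stood above both other arrays by 1.28, or 2.43-fold. At least as large a difference was found for 345 genes (1.56%) against progenitors and for 239 genes (1.08%) against innate lymphoid cells. Ext2, whose product joins that of Ext1 in the polymerase, was at 7.11 on all 3 arrays. Each gene has 1 probe set. The measured neighbours of Ext1 on chromosome 15 showed no difference of that size, with the Mediator gene Med30 between 5.40 and 5.50 and Samd12 at 4.96 throughout. Both lay below the array medians and Samd12 was tied, so a difference of either could be missed.

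The members for the linker and for later modification gave no difference. Xylt2, a xylosyltransferase gene, was at 5.89 on all 3 arrays. B4galt7, which encodes the galactosyltransferase that adds the first galactose of the linker, was at 7.69 in mature mast cells, 7.70 in progenitors and 7.71 in innate lymphoid cells by its brighter probe set, and at 6.83 throughout by the other. Glce, the epimerase gene, was at 6.63 on all arrays by 1 probe set and at 5.50 by another. Another probe set names both Glce and the microRNA gene Mir5133, and was at 6.30 in mature mast cells and 6.87 in progenitors and innate lymphoid cells. It cannot be assigned to either gene and, as the dimmer array of this probe set was mature mast cells, it ran against the direction of Ndst2 and Ext1. Hs2st1, the O-sulfotransferase gene for uronic acid residues, was at 5.58, and Hs6st1, the O-sulfotransferase gene for glucosamine residues, at 6.48, throughout.

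An identical value on all arrays is common in these data and is no measure of equal transcript. Of the measured members 5 of 9, or 55.6%, had 1 level to every digit given on the 3 arrays, against 47.9% of all genes. The share differed by level: it was 49.7% of the 7867 genes with a mean up to 6, 52.1% of the 9961 genes above 6 and up to 7, 40.2% of the 3659 genes up to 8, 10.3% of the 464 genes up to 9 and 2.62% of the 229 genes above 9. All 5 tied members had levels below 8, and Xylt2 and Hs2st1 were below 6. Differences of these members, if there are any, would not be seen here, and the cause of the ties was not tested.

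Mature mast cells and innate lymphoid cells differed by at least 2-fold in 2 members, Ndst2 (15.5-fold) and Ext1 (2.43-fold), both higher in mature cells. Past 4-fold there was 1 of 9 members, Ndst2, against 0.573% of all genes higher in mature cells. Past 2-fold there were 2 of 9, against 1.34%, and 0 lower, against 1.26%. Of the 1031 genes with a level above 8 on the brighter array, 9.6% were at least 4-fold and 17.2% at least 2-fold higher in mature cells. Ndst2 and Ext1 enter that set through the mature mast cell array alone, so it too is chosen partly by the difference.

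Between progenitors and innate lymphoid cells 0 of 9 members reached 2-fold, a size passed by 0.766% of all genes as higher and by 1.88% as lower in progenitors. The largest member difference was that of Srgn, at -0.68. Ndst2 differed by 0.17. Exactly tied on these arrays were 6 of 9 members, Ext1 among them, and 57.0% of all genes. The 3 comparisons share arrays, so they are not independent of each other.

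**Figure D3:**
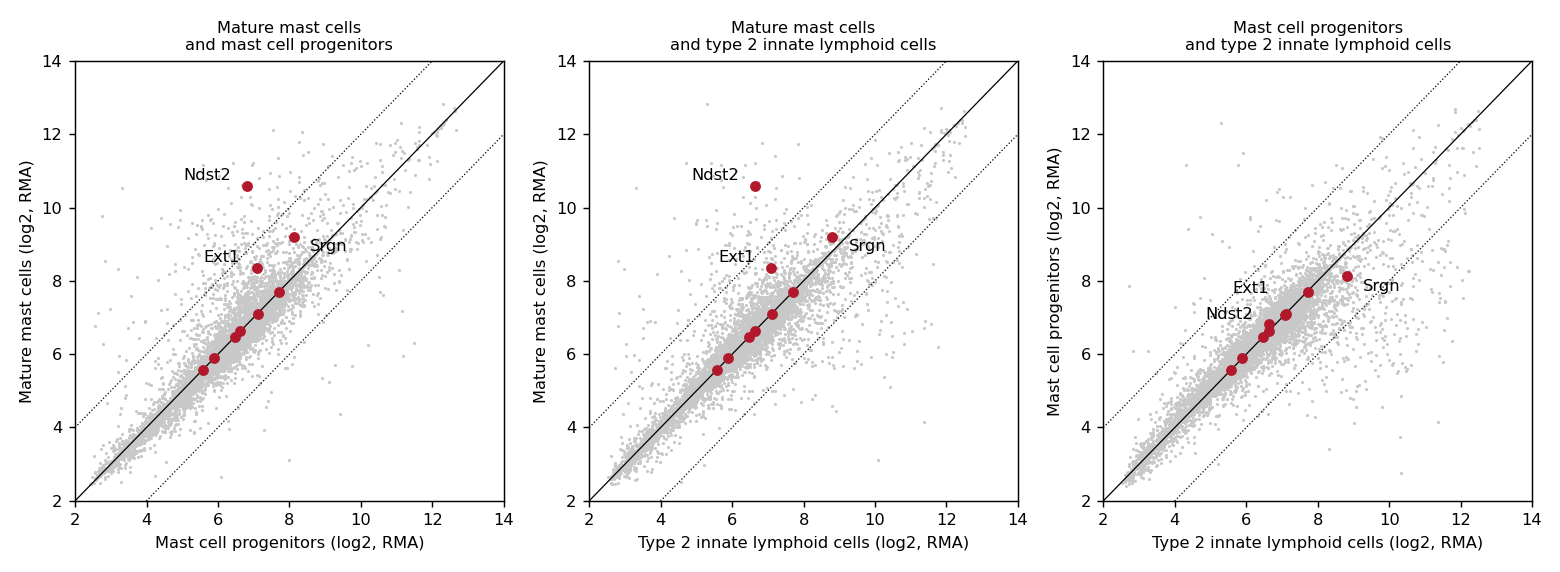
Log2 RMA levels of 22180 genes (grey) and the 9 measured members (red) on each pair of arrays, with the line of equality and dotted lines at a log2 difference of 2. Ndst2 lies beyond the dotted line on both plots with mature mast cells on the y axis, at 3.78 and 3.95 above equality, and inside it on the plot of progenitors and innate lymphoid cells.

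Other genes of the pathway were taken from 7 lists, chosen with earlier results of these data known. They cover the linker, polymerisation, sulfation, the supply of sulfate donor and nucleotide sugars, chondroitin sulfate, breakdown and other proteoglycan cores. Of 79 listed genes that are no members, 73 were measured, and 0 of these reached 2-fold in any comparison. In each comparison 2.44% to 2.65% of all genes did so in either direction, so 0 of 73 is near that share. As many as 39 of the 73 (53.4%) were tied on all 3 arrays, and 1, the small proteoglycan gene Bgn, was above a log2 level of 8, so small differences of most of them would not be seen.

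In the sulfation list, which holds the members Ndst2, Glce, Hs2st1 and Hs6st1, Ndst2 was the 1 of 14 measured genes past 2-fold in either comparison with mature mast cells. Its paralogue Ndst3 was at 6.25 on all arrays, and Ndst4 was at 5.08 in mature mast cells and 5.10 in the other populations. Hs3st1, an O-sulfotransferase gene of the enzyme family that makes antithrombin-binding sites, was at 6.30 throughout. Of 5 polymerisation genes, Ext1 alone passed 2-fold, and of 7 linker genes 0 did, where 2.44% to 2.65% of all genes passed in each comparison.

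The largest difference among the 73 other genes was that of Papss2, singled out after its values were seen. It encodes a synthase of PAPS, the sulfate donor of all these sulfotransferases. Papss2 was at 7.42 in mature mast cells and at 6.51 in progenitors and innate lymphoid cells, a difference of 0.92 that missed 2-fold. Its relative Papss1 was at 5.61 throughout. Ugdh, which makes UDP-glucuronic acid for the chain, was also picked out by its values. Among the 73 genes it was the furthest below innate lymphoid cells in mature mast cells and in progenitors. Ugdh was at 5.78 in mature mast cells and 5.76 in progenitors, against 6.36 in innate lymphoid cells. Between mature mast cells and progenitors the largest difference in the opposite direction to Papss2 was that of Sdc4, at -0.39.

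None of the 14 measured genes of chondroitin and dermatan sulfate synthesis, of the 11 for breakdown and remodelling or of the 18 other cores reached 2-fold. Of all genes, 2.44% to 2.65% did so in each comparison, so none in lists of this size is near that share. Tied on all arrays were 6, 8 and 13 of them (42.9%, 72.7% and 72.2%), against 47.9% of all genes. Hpse, the heparanase gene, was at 5.67 and Cd44, a surface protein that can carry such chains, at 6.04 throughout, both below the array medians.

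Granule proteases and amine genes, whose products are stored with serglycin or form what is stored, made up the last list. Its genes Cpa3, Cma1, Mcpt4, Tpsb2 and Hdc also served as mast cell markers above, so its counts partly repeat the marker values. Of 8 such genes, 5 were at least 2-fold and 2 at least 4-fold higher in mature mast cells than in progenitors. The shares were 1.93% and 0.834% of all genes, and 31.6% and 16.4% of genes above a log2 level of 8 on the brighter array. Hdc and Slc18a2 lay below 8 on every array and are not among those bright genes. Several genes of the list are much brighter than most members. The tryptase gene Tpsb2 was at 11.74 in mature mast cells and 8.94 in progenitors, and Tph1, for serotonin synthesis, at 9.57 in mature mast cells and 5.86 in progenitors. Carboxypeptidase gene Cpa3, at 12.83 in mature mast cells and 12.30 in progenitors, did not reach 2-fold. Against innate lymphoid cells 6 of the 8 were at least 2-fold higher in mature mast cells (1.34% of all genes, 17.2% of bright genes). In progenitors 4 of the 8 were (0.766% of all genes, 10.8% of bright genes), where 0 of the 9 measured serglycin and heparin genes were. The list was chosen with such results known, and its difference from the serglycin and heparin genes was not tested.

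**Figure D4:**
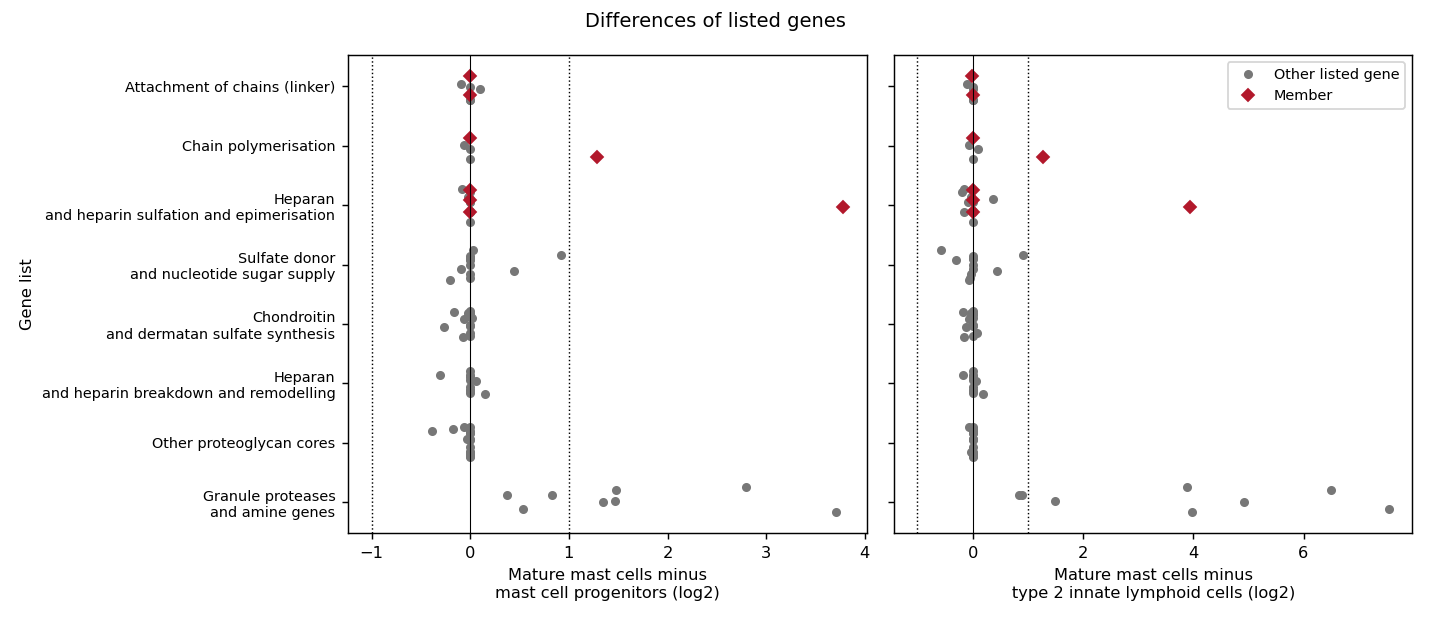
Log2 differences (x axis) of the measured genes of 8 lists (y axis), mature mast cells minus mast cell progenitors (left) and minus type 2 innate lymphoid cells (right), with members as red diamonds, other genes in grey and dotted lines at the 2-fold size; points are spread vertically for legibility. In the 7 lists of the pathway Ndst2 and Ext1 lie past the dotted lines, and all other points lie inside them. The member Srgn is in none of the lists and is not drawn.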

How the data were processed

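Log2 expression values of 41345 probe sets on 3 arrays were used as deposited. The authors made these log2 values with RMA, named without a version in the submitters' processing notes, from amplified RNA of 100 cells per population. Amplification can change proportions between transcripts, and background signal compresses differences of dim genes. The scale was inferred from values between 2.23 and 13.7. Genome build and filters are not given in the sources used here.

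By the platform's annotation 23521 probe sets named 1 gene and 1814 several, and 16010 are unnamed here. Entrez identifiers of the 9 measured members matched RefSeq (GRCm38.p6), used for names, neighbours and promoters. Where a gene had several probe sets, that with the highest mean stood for it. Differences were computed with Python 3.11.15, pandas 2.3.3 and numpy 2.4.6 and drawn with matplotlib 3.10.9, and counting was tested on simulated data. Populations with 1 array each allow no test. Members and lists were chosen with earlier results of these data known. The text names all members, listed genes past 2-fold (up to 5 a list) and the 5 genes nearest to Ndst2 and to Srgn by levels or by levels less the gene's mean, provisional, microRNA, small nucleolar and olfactory receptor names left out. Other listed genes were named as examples after their values were seen. Ndst1 and some other listed genes were not analysed here. Alternatives were a floor at the 75th percentile or none, common medians for the arrays, repeated quantile normalization, the mean of a gene's probe sets, its probe set of largest range, and inclusion of probe sets naming several genes.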

Additional observations from a re-analysis of the deposited data

How the results depend on the processing

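Over 7 alternatives, the counts of members past 4-fold and past 2-fold stayed within 1.5 times those reported. Most alternatives could hardly move a member. The floor settings leave every difference as it is. Averaging probe sets or taking that of largest range cannot move the 7 members with 1 probe set naming them alone. Among members, only Glce has a probe set naming several genes, and common medians shifted differences by at most 0.02. Of 189 member differences under an alternative, 188 kept their side of the 2-fold size, a count thus largely fixed beforehand and no measure of robustness. The exception was Srgn between mature mast cells and progenitors, at 0.72 with quantile normalization repeated, against 1.08 as deposited, and the cause was not tested. That setting left 2 members past 2-fold, Ndst2 and Ext1. Ndst2 ranged from 3.60 to 3.80 between mature mast cells and progenitors and from 3.78 to 3.96 against innate lymphoid cells, and Ext1 from 1.19 to 1.30 and from 1.20 to 1.29. With probe sets naming several genes used, Glce was 0.57 lower in mature mast cells than on either other array. Between progenitors and innate lymphoid cells, quantile normalization moved the split of all genes past 4-fold to 64 higher and 157 lower, against 46 and 197. Set to 1 median, the arrays' median difference over all genes moved by at most 0.02. Chosen after the data were examined, subtracting each gene's mean moved Kit to rank 5 of the genes nearest to Ndst2 and Vamp8 to rank 54 of those nearest to Srgn, from rank 1 by levels. No paired analysis was possible because each population has 1 array.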

Other observations

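A measured neighbour of Srgn on chromosome 10, Vps26a, which encodes a subunit of the retromer of endosomes, was at 8.29 in mature mast cells, 6.92 in progenitors and 7.04 in innate lymphoid cells. Mature mast cells were thus higher by 1.37 and 1.25, sizes past 2-fold, whereas Srgn passed 2-fold against progenitors alone. The neighbour on the other side, Kifbp, was at 6.62 in mature mast cells and 6.29 in the other populations. Vps26a was singled out after its values were seen, and no relation between the genes was tested.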
